A study of Mus musculus with 8 samples.

Results

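Syk and 9 other genes of B cell receptor-type signalling (Siglecg, Cd79b, Cd22, Ms4a1, Btk, Plcg2, Blnk, Bank1 and Lyn) were followed through 3 sorted fractions of mouse spleen XCR1+ dendritic cells. The genes were chosen from a list of names after results of these same arrays were known: Syk, Siglecg and Cd79b were picked because they lay higher in the first mature fraction and lower in the second. Their values are therefore given as a description, with no p-value. Calls from the fit over all genes are counted for them once, beside the share of all genes, and support nothing. A gene was measured where the array had a row annotated to its symbol alone, which held for 9 of the 10 genes among 19938 genes in all. Lyn, a Src family kinase, was not analysed here.

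XCR1+ dendritic cells form the CD8α-bearing branch of conventional dendritic cells in the spleen and are known for presenting captured antigen to CD8 T cells. They came from untreated Il12b-EYFP reporter mice, in which a yellow fluorescent protein is made from the Il12b locus, the gene of a subunit of interleukin-12. All fractions were sorted as lineage-negative cells with no or low Bst2, high CD11c and CD8α, and total RNA from each sorted sample was measured on 1 array. The immature fraction lacked CCR7 and the reporter (n = 3), the fraction called CCR7+Il12b- had CCR7 without the reporter (n = 3), and the fraction called CCR7+Il12b+ had both (n = 2). CCR7 is the chemokine receptor that guides maturing dendritic cells. The reporter allele was shared by all 3 fractions, and no age of the mice is stated in the sources used here. The title of the study states that it followed maturation in the steady state. Nothing in the labels ties a replicate to a mouse of its own. Every p-value thus measures only how these samples scatter, and that scatter may be technical.

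Syk is a tyrosine kinase that docks on phosphorylated activation motifs in the tails of immune receptors and of their adaptor chains. In B cells those motifs lie in Cd79a and Cd79b, Lyn begins the phosphorylation, Blnk and Bank1 act as scaffolds, and Btk and Plcg2 carry the signal to calcium, while Cd22 and Siglecg recruit phosphatases that restrain it. In dendritic cells Syk serves other receptors, among them Clec9a, which senses dead cells, and receptors that signal through the chains Fcer1g and Tyrobp.

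RefSeq promoter windows of the build GRCm38.p6, each reaching from 250 bases before to 50 bases after a gene's start, were matched by symbol for 7 of the 10 genes, with 9 start sites. Syk, Siglecg, Cd22, Blnk, Btk, Bank1 and Plcg2 had a window, and Cd79b, Ms4a1 and Lyn had none in the table. The 250 bases before the second start of Syk (chr13:52596632-52596881, plus strand) and before the first start of Siglecg (chr7:43407989-43408238, plus strand) are shown because both hold the same 18-base run, in capitals, and because both genes lay highest in CCR7+Il12b- cells.
Syk: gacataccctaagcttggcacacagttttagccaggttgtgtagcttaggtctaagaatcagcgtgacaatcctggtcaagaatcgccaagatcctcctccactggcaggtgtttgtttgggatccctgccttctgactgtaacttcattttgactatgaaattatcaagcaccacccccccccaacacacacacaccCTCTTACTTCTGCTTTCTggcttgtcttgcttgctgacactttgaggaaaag
Siglecg: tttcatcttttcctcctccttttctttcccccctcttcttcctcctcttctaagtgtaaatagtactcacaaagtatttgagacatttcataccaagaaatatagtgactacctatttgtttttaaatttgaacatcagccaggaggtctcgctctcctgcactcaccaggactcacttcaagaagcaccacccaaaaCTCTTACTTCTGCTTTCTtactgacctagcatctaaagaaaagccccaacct

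In both windows the run lay from base -52 to base -35, counted back from the start site. It also lay in the overlapping window of the second Siglecg start. It was held by 3 of 32851 promoter windows (0.00913%), those of these 2 genes. The run was found by searching the windows of these 7 genes against each other, so its presence in them is no test. A core of 14 bases from it, on the other strand, lay just after the start of Plcg2 (window chr8:117498025-117498324, plus strand) and is shown in capitals with 16 bases on each side.
Plcg2: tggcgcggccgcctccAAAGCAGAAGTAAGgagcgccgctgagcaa

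That core was held by 5 windows (0.0152%) of 4 genes. Plcg2 had a different pattern from Syk and Siglecg in these arrays, as its values below show. The octamer ATGCAAAT, a sequence known from B cell gene promoters, was searched on both strands and lay in 1.74% of all windows. Among the 9 windows it was found only in that of Blnk (chr19:40994172-40994471, minus strand), where it reads on the other strand, in capitals.
Blnk: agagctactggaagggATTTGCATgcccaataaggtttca

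The E-box CACGTG (7.15% of all windows) was found in the Plcg2 window alone, and neither the PU.1-type site GAGGAAGT (3.2%) nor an NF-kB site (8.46%) was found in any of the 9. The ETS core GGAA, which is part of the PU.1-type site, lay in 96% of all windows and in 8 of the 9. The first Syk start (chr13:52583187-52583486, plus strand) was the exception, and 72% of its bases were G or C. A match describes letters in a window and an absent match says only that the letters are not in it. The array gives 1 value per gene and does not tell which start was used.

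Across all genes, 77.1% of the variance fell on the first principal component, which placed the immature arrays between -55.8 and -47.8, the CCR7+Il12b- arrays at 8.2, 13.4 and 30.1, and the CCR7+Il12b+ arrays at 52.2 and 53.6. Replicate 3 of CCR7+Il12b- stood apart from its group towards CCR7+Il12b+. Some differences of the 9 measured genes and some counts are given with and without it. Differences of single genes outside the 9, such as Clnk, Lcp2 and Xcr1, are given only with it. The median log2 value of an array ranged from 5.25 to 5.46, and the lowest correlation of an array with another of its group was 0.986. Mean Ccr7 expression followed the labels, at 8.64, 12.22 and 12.61 in immature, CCR7+Il12b- and CCR7+Il12b+ cells. Mean Il12b expression was 7.03, 10.81 and 12.28. Il12b RNA was thus 13.7-fold higher in CCR7+Il12b- than in immature cells, although both lacked the reporter. It was 2.78-fold higher again in CCR7+Il12b+ cells. Xcr1 had means of 10.9, 9.54 and 7.88. All 14 genes of a list of XCR1+ dendritic cell identity had means above the background mark in every fraction. Itgae did so narrowly in CCR7+Il12b+ cells, with a mean of 5.01 from values of 4.71 and 5.31. In CCR7+Il12b+ against immature cells 10 of the 14 were called lower and 2 higher (limma adjusted p under 0.05), beside 17.9% and 14.1% of all genes. The background mark was 4.98, the 95th percentile of the means of 1190 olfactory and vomeronasal receptor genes. Sorted samples are bulk samples, in which fewer cells of a type and less RNA per cell cannot be told apart.

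Syk was highest in CCR7+Il12b- cells and lowest in CCR7+Il12b+ cells. Its log2 expression was 7.44, 7.40 and 7.49 in the immature samples, 8.08, 8.10 and 8.04 in the CCR7+Il12b- samples, and 6.97 and 6.97 in the CCR7+Il12b+ samples. The 3 groups did not overlap, and the smallest gaps between samples of neighbouring groups were 0.55 and 0.43. Means were 7.45 ± 0.048 (SD, n = 3), 8.07 ± 0.029 (n = 3) and 6.97 ± 0.0021 (n = 2). CCR7+Il12b- cells lay 0.63 ± 0.09 (SE of the model) above immature cells, or 1.54-fold. CCR7+Il12b+ cells lay 0.48 below immature cells (difference -0.48 ± 0.11) and 2.15-fold below CCR7+Il12b- cells (-1.11 ± 0.11). Without replicate 3 of CCR7+Il12b-, the differences that involve that group were 0.64 and -1.12. Over 14 alternative settings the difference of CCR7+Il12b+ from immature cells lay between -0.52 and -0.25.

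**Figure D1:**
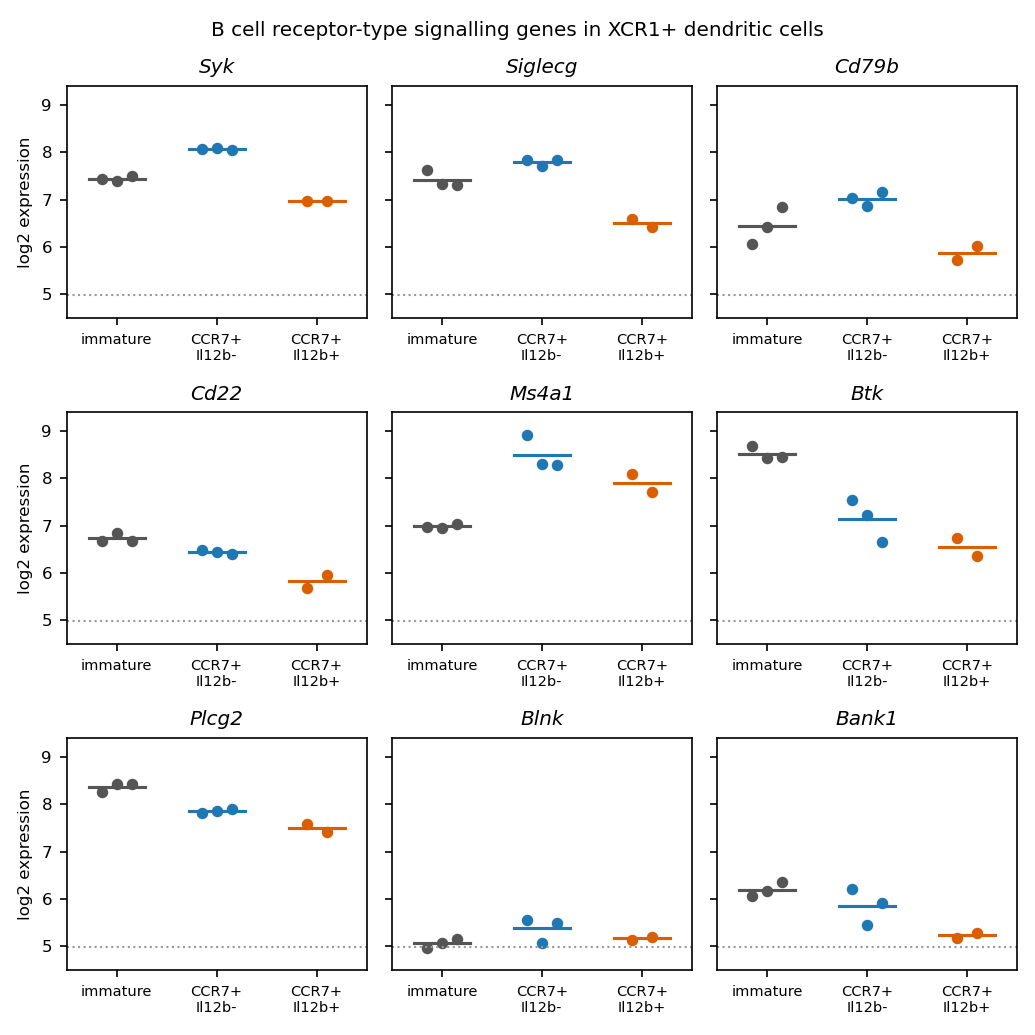
Log2 expression of the 9 measured genes in each of the 8 arrays, by sorted fraction (points are arrays, bars are group means, and the dotted line is the background mark of 4.98). Syk, Siglecg and Cd79b were highest in CCR7+Il12b- and lowest in CCR7+Il12b+ cells, whereas Btk, Plcg2, Cd22 and Bank1 were highest in immature cells and Ms4a1 was lowest there.

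Siglecg and Cd79b, the other genes picked for this pattern, had the same order of means. Siglecg, a sialic acid-binding inhibitory receptor, had values of 7.62, 7.33 and 7.30 in immature, 7.83, 7.71 and 7.84 in CCR7+Il12b-, and 6.59 and 6.43 in CCR7+Il12b+ samples. Its immature and CCR7+Il12b- samples lay close together, 0.087 apart at the nearest, while the CCR7+Il12b+ samples lay 0.71 below the lowest immature sample. The difference of CCR7+Il12b- from immature cells was 0.38 ± 0.12, that of CCR7+Il12b+ from immature cells -0.91 ± 0.13, and that between the mature fractions -1.28 ± 0.13, or 2.43-fold.

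Cd79b encodes the signalling chain that pairs with Cd79a under the B cell receptor. Its values were 6.06, 6.43 and 6.84 in immature, 7.03, 6.86 and 7.17 in CCR7+Il12b-, and 5.72 and 6.02 in CCR7+Il12b+ samples. The groups did not overlap, but the gaps were 0.015 and 0.048, so that the order of neighbouring groups rests on single samples. The immature SD of 0.39 was the widest of the 9 genes in that group. The mature fractions differed by -1.15 ± 0.2, or 2.22-fold, and by -1.07 without replicate 3 of CCR7+Il12b-.

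Cd22 and Ms4a1, the other membrane proteins, did not share this order. Cd22, an inhibitory co-receptor related to Siglecg, had values of 6.67, 6.84 and 6.68 in immature, 6.49, 6.44 and 6.41 in CCR7+Il12b-, and 5.69 and 5.96 in CCR7+Il12b+ samples. It lay lower in each step without overlap, by -0.28 ± 0.11 from immature to CCR7+Il12b- cells and by -0.63 ± 0.12 from there to CCR7+Il12b+ cells. Thus the 2 inhibitory receptors lay on different sides of the immature level in CCR7+Il12b- cells and both lay lowest in CCR7+Il12b+ cells.

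Ms4a1, the gene of CD20, had values of 6.97, 6.96 and 7.03 in immature, 8.91, 8.30 and 8.28 in CCR7+Il12b-, and 8.10 and 7.70 in CCR7+Il12b+ samples. It was the only one of the 9 genes whose CCR7+Il12b+ samples all lay above the immature samples without overlap. CCR7+Il12b- cells lay 2.85-fold above immature cells (1.51 ± 0.17), and CCR7+Il12b+ cells 1.88-fold above them (0.91 ± 0.19). The mature fractions differed by -0.60 ± 0.19, and their nearest samples were 0.18 apart.

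The kinase and the lipase below Syk were highest in immature cells. Btk, the Tec family kinase that activates Plcg2, had values of 8.69, 8.43 and 8.45 in immature, 7.54, 7.22 and 6.65 in CCR7+Il12b-, and 6.74 and 6.35 in CCR7+Il12b+ samples. Immature cells lay 2.61-fold above CCR7+Il12b- cells (-1.39 ± 0.2) and 3.94-fold above CCR7+Il12b+ cells (-1.98 ± 0.22), the largest differences of the 9 genes below the immature level. The mature fractions overlapped, because CCR7+Il12b- replicate 3, at 6.65, lay between the CCR7+Il12b+ samples. Without that replicate the difference between immature and CCR7+Il12b- cells was -1.14 and that between the mature fractions went from -0.59 to -0.84.

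Plcg2, the phospholipase that releases calcium and diacylglycerol signals, had values of 8.27, 8.42 and 8.42 in immature, 7.81, 7.86 and 7.90 in CCR7+Il12b-, and 7.58 and 7.41 in CCR7+Il12b+ samples. The groups did not overlap, and the differences were -0.51 ± 0.1 and -0.87 ± 0.11 from immature cells and -0.36 ± 0.11 between the mature fractions. Btk and Plcg2 thus lay lower in CCR7+Il12b- cells, where Syk lay higher.

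The scaffolds Blnk and Bank1 each had neighbouring groups that overlapped. Blnk, which links Syk to Btk and Plcg2 in B cells, had values from 4.96 to 5.16 in immature, from 5.08 to 5.56 in CCR7+Il12b-, and of 5.14 and 5.20 in CCR7+Il12b+ samples. These values lay near the background mark of 4.98, all neighbouring groups overlapped, and the largest of the 3 differences was 0.31 ± 0.13. The order of its CCR7+Il12b+ and immature means turned when arrays were normalized with cyclic loess, from 0.10 to -0.03. Bank1, a scaffold that binds Lyn in B cells, had values of 6.07, 6.16 and 6.36 in immature, 6.21, 5.45 and 5.92 in CCR7+Il12b-, and 5.18 and 5.28 in CCR7+Il12b+ samples. Immature and CCR7+Il12b- samples overlapped, and both CCR7+Il12b+ samples lay below all others, 1.95-fold below immature cells (-0.97 ± 0.19).

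**Figure D2:**
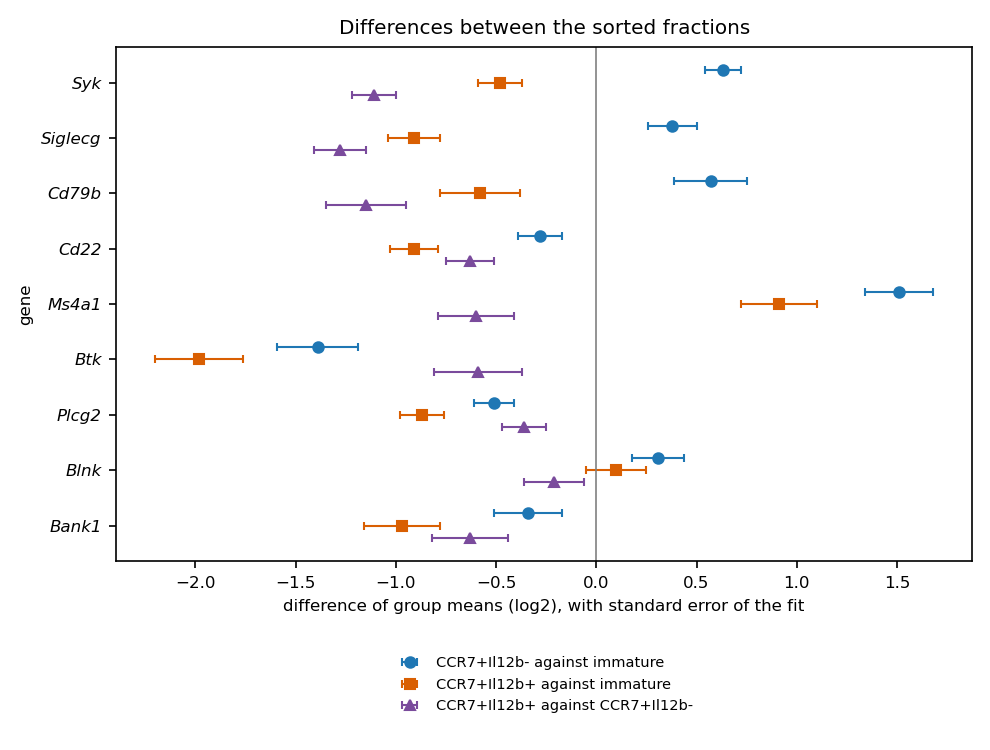
Difference of group means on the log2 scale for each of the 9 genes in the 3 pairwise comparisons (symbols are the differences, bars the standard error of the model). Between the mature fractions the differences ranged from -1.28 for Siglecg to -0.21 for Blnk, beside a median of 0.0199 over all genes. Syk, Siglecg and Cd79b were picked for a fall in this step, so these differences are a description only. The differences of CCR7+Il12b- from immature cells lay on both sides of 0, from -1.39 for Btk to 1.51 for Ms4a1.

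Counts over the 9 genes stand beside those over all genes, and since these comparisons chose the genes, nothing is read from them. With limma and Benjamini-Hochberg adjustment over all 19938 genes, at an adjusted p under 0.05, CCR7+Il12b- against immature cells called 4 of the 9 higher (Syk, Siglecg, Cd79b, Ms4a1; 9.10% of all genes) and 2 lower (Btk, Plcg2; 14.5%). CCR7+Il12b+ against immature cells called Ms4a1 higher (14.1% of all genes) and 7 lower, which left Blnk uncalled (17.9%). CCR7+Il12b+ against CCR7+Il12b- cells called 4 lower (Syk, Siglecg, Cd79b, Cd22; 4.47% of all genes) and the other 5 in neither direction (2.61% of all genes were called higher). The median differences over the 9 genes were 0.31, -0.87 and -0.63, beside 0.0608, 0.0932 and 0.0199 over all genes. The comparisons share their arrays in pairs, so that none of them is independent of the others. The 4 calls higher became 2 without immature replicate 2, without CCR7+Il12b- replicate 1 and without CCR7+Il12b- replicate 3, after centring each array on its median, and with the replicate number as a random block. The 2 lower calls in the same comparison became 4 with array weights, and the 4 lower calls between the mature fractions became 2 without CCR7+Il12b+ replicate 1.

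Likeness to Syk was measured as Pearson's r over the 8 arrays, which fall into 3 groups, so it mostly reads the order of group means and is given as a description. Siglecg (r = 0.92) and Cd79b (r = 0.90) were most like it among the 9 genes, Ms4a1 and Blnk had r = 0.51 each, Cd22 0.50 and Bank1 0.42, and Plcg2 (0.20) and Btk (0.08) were least like it. Among 2607 genes with a group mean above the background mark and group means spanning at least 1 on the log2 scale, those outside the list with the highest r were Tns1 (0.937), Gpr183 (0.93), Gpm6b (0.927), Atp1b1 (0.917) and Fcer1g (0.91). Tns1 encodes tensin, a protein of cell adhesion sites, and its means were 7.57, 8.20 and 7.13 in immature, CCR7+Il12b- and CCR7+Il12b+ cells. Gpr183, the receptor for oxysterols that positions immune cells in the spleen, had means of 7.33, 8.10 and 6.69. Gpm6b, a membrane proteolipid, had means of 5.78, 6.70 and 5.59, and Atp1b1, a subunit of the sodium pump, had 5.27, 6.10 and 4.93, the last below the background mark. Fcer1g, the Fc receptor gamma chain, carries the activation motif on which Syk docks, and its means were 9.68, 10.1 and 8.72. Each of these genes was highest in CCR7+Il12b- cells, an order that their choice by likeness to Syk brings with it, so it supports nothing.

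**Figure D3:**
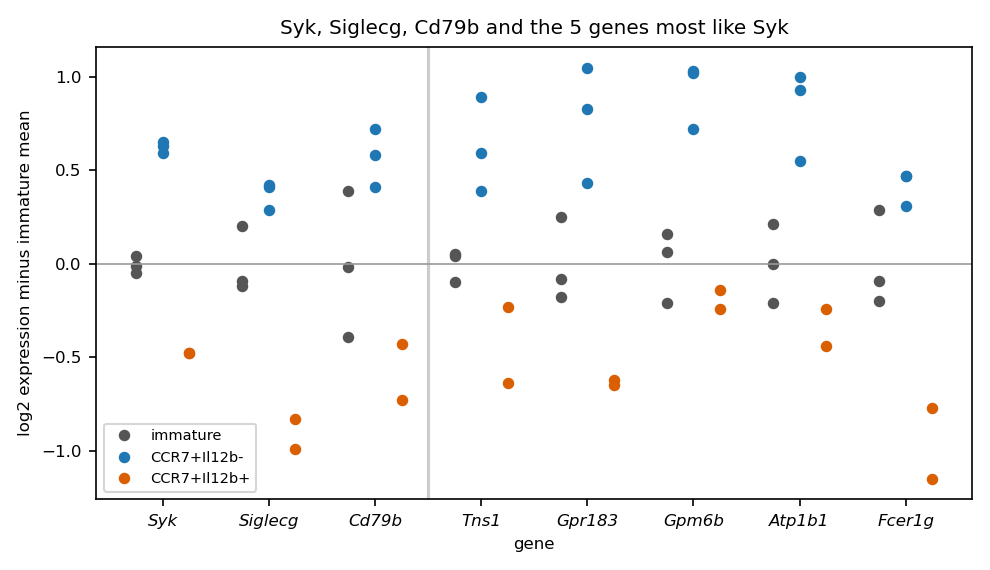
Log2 expression minus the gene's immature mean in each array, for Syk, Siglecg and Cd79b (left of the line) and the 5 other genes with the highest Pearson's r with Syk (right). The CCR7+Il12b- arrays lay above the immature mean and the CCR7+Il12b+ arrays below it for all 8 genes, which were chosen for this pattern or for likeness to Syk.

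The wider pathway was read from 5 lists of other genes, of which 98 of 103 were measured. In CCR7+Il12b- against immature cells 21 of the 98 rose and 21 fell, beside 9.10% and 14.5% of all genes. In CCR7+Il12b+ against immature cells 24 rose and 34 fell, beside 14.1% and 17.9%. In CCR7+Il12b+ against CCR7+Il12b- cells 4 rose and 23 fell, beside 2.61% and 4.47%. The median differences over the 98 genes were 0.14, 0.03 and -0.11. Without CCR7+Il12b- replicate 3 the counts were 19 and 16, 24 and 34, and 4 and 26. Without CCR7+Il12b+ replicate 1, the 27 calls between the mature fractions became 15 (2 higher and 13 lower), and without CCR7+Il12b- replicate 1 the 23 lower calls became 15. The 4 higher calls also became 2 without CCR7+Il12b- replicate 2 and without CCR7+Il12b+ replicate 2.

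The first list held receptors and adaptors with an activation or related motif, and receptors that signal through chains with one. Of these 14 genes, 1 rose and 1 fell in CCR7+Il12b- against immature cells, and 3 fell between the mature fractions. The 1 that rose was Cd79a, whose call ended without immature replicate 2, and 2 genes rose without immature replicate 3. Fcer1g had values of 9.48, 9.59 and 9.97 in immature, 10.15, 9.99 and 10.15 in CCR7+Il12b-, and 8.53 and 8.91 in CCR7+Il12b+ samples. It fell between the mature fractions by 1.38 on the log2 scale (-1.38 ± 0.17, limma adjusted p = 0.000853), and its difference of 0.42 ± 0.15 above immature cells did not pass (adjusted p = 0.0681). Clec9a, the dead cell receptor that signals through Syk, fell between the mature fractions by 1.61 (SE 0.18, adjusted p = 0.000662), and Tyrobp, another adaptor chain with the motif, by 0.49 (SE 0.11, adjusted p = 0.0216). The Tyrobp call was lost in 5 of the alternative settings. Hcst, an adaptor that pairs with NK receptors, fell in CCR7+Il12b- against immature cells (-0.73 ± 0.15, adjusted p = 0.00526).

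Among 12 measured kinases of the Src, Syk and Tec families and their regulators, 3 rose and 1 fell in CCR7+Il12b- against immature cells, and 2 rose and 3 fell between the mature fractions. Tec, a relative of Btk, rose 2.87-fold in CCR7+Il12b- cells (1.52 ± 0.13, adjusted p = 1.06e-05), with immature values from 5.53 to 5.85 and CCR7+Il12b- values from 7.08 to 7.40. Its difference was thus opposite in sign to that of Btk in the same comparison. Src rose in CCR7+Il12b- cells (1.10 ± 0.14, adjusted p = 0.000245) and again between the mature fractions (0.86 ± 0.16, adjusted p = 0.00861). Csk, which restrains Src family kinases, fell in both (-0.76 ± 0.15, adjusted p = 0.00362, and -0.96 ± 0.17, adjusted p = 0.00605). Without CCR7+Il12b+ replicate 2 the second step did not pass for Src (adjusted p = 0.0645) or Csk (adjusted p = 0.0515), which left 1 kinase gene that rose and 2 that fell between the mature fractions. Fgr, a myeloid Src family kinase, fell between the mature fractions from 7.71, 7.71 and 7.43 to 6.25 and 5.71 (-1.64 ± 0.18, adjusted p = 0.00051). Zap70, the other kinase of the Syk family, had means of 4.43, 4.57 and 4.56, below the background mark in all 3 fractions.

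Among 28 measured adaptors and second messenger genes, 9 rose and 6 fell in CCR7+Il12b- against immature cells, and 2 rose and 10 fell between the mature fractions. The 10 lower calls became 4 without CCR7+Il12b+ replicate 1, 5 without CCR7+Il12b+ replicate 2 or CCR7+Il12b- replicate 2, and 6 without CCR7+Il12b- replicate 1 or immature replicate 2. The 2 higher calls became 0 without CCR7+Il12b- replicate 2 or CCR7+Il12b+ replicate 1, and 1 without CCR7+Il12b- replicate 1 or CCR7+Il12b+ replicate 2. Rasgrp1, a Ras activator that responds to diacylglycerol, rose in CCR7+Il12b- cells (1.62 ± 0.14, adjusted p = 1.69e-05), as did Vav2, a signalling protein of the Vav family (1.40 ± 0.12, adjusted p = 1.44e-05). Clnk, an adaptor of the same family as Blnk and Lcp2, fell there (-1.88 ± 0.23, adjusted p = 0.000188) and between the mature fractions (-1.17 ± 0.26, adjusted p = 0.0212), a second call that 4 left-out samples ended. Lcp2, also known as SLP-76, fell between the mature fractions from 9.27, 9.03 and 8.45 to 7.26 and 7.44 (-1.57 ± 0.2, adjusted p = 0.00104). Pik3ap1, an adaptor that recruits PI3 kinase, fell there by 1.25 (SE 0.13, adjusted p = 0.000357).

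Among 16 measured CARD, NFAT and protein kinase C genes, 2 rose and 4 fell in CCR7+Il12b- against immature cells. The 4 lower calls became 2 without immature replicate 2, immature replicate 3 or CCR7+Il12b- replicate 3. Malt1, the protease that joins Card proteins to NF-kB, rose (1.38 ± 0.13, adjusted p = 3.03e-05), as did Prkcd (0.97 ± 0.12, adjusted p = 0.000145), while Nfatc2, a calcium-responsive transcription factor, fell (-1.41 ± 0.16, adjusted p = 9.74e-05). Prkcb, the kinase that acts between Plcg2 and the Card proteins in B cells, was the 1 gene of the list called between the mature fractions, where 2 genes fell without CCR7+Il12b- replicate 3 or CCR7+Il12b+ replicate 2. Its values were 8.40, 8.53 and 8.56 in immature, 8.45, 8.44 and 8.59 in CCR7+Il12b-, and 6.50 and 6.90 in CCR7+Il12b+ samples (-1.79 ± 0.14 between the mature fractions, adjusted p = 0.000124).

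The list of 28 inhibitory receptors, phosphatases and related genes, such as Siglech, held 6 that rose and 9 that fell in CCR7+Il12b- against immature cells. Between the mature fractions 6 fell. Those 6 became 3 without CCR7+Il12b- replicate 1 or CCR7+Il12b+ replicate 1, and 8 without CCR7+Il12b- replicate 3. Cblb, a ubiquitin ligase that limits receptor signalling, rose 4.68-fold in CCR7+Il12b- cells (2.23 ± 0.1, adjusted p = 1.45e-07), from 9.15, 9.13 and 9.30 to 11.31, 11.45 and 11.51. The inhibitory receptor Lilrb4a rose as well (2.08 ± 0.13, adjusted p = 1.36e-06). Fcgr2b, the inhibitory Fc receptor, fell 4.07-fold (-2.03 ± 0.17, adjusted p = 1.07e-05), from 8.17, 7.90 and 7.86 to 6.14, 6.07 and 5.63. Between the mature fractions the lipid phosphatase Inpp5d fell by 1.26 (SE 0.14, adjusted p = 0.000486) and the tyrosine phosphatase Ptpn22 by 1.26 (SE 0.12, adjusted p = 0.000301). Sirpa, an inhibitory receptor that also marks CD11b+ dendritic cells, fell there by 0.91 (SE 0.2, adjusted p = 0.0211), a call lost without CCR7+Il12b+ replicate 1 (adjusted p = 0.163) and without CCR7+Il12b- replicate 1 (adjusted p = 0.05). Genes of this list thus moved in both directions in CCR7+Il12b- cells.

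**Figure D4:**
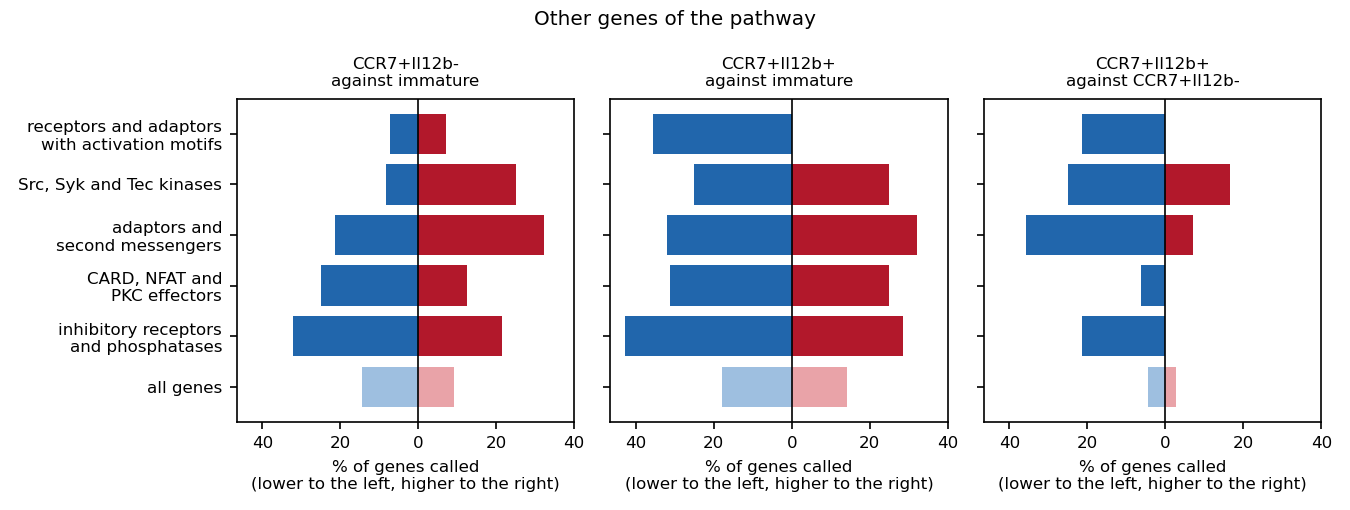
Share of the measured genes of each pathway list, and of all genes, called higher (right of 0) or lower (left of 0) in the 3 pairwise comparisons, in percent. Between the mature fractions genes called lower outnumbered those called higher in every list, as they did among all genes (4.47% against 2.61%). The margin was 3 to 2 in the kinase list and 1 to 0 in the CARD, NFAT and protein kinase C list. The share of all genes includes genes below the background mark.

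Since Cd79b, Cd22, Ms4a1, Blnk and Bank1 are best known from B cells, the level of other B cell genes was measured in the same arrays. Of 15 measured B cell markers, 8, 9 and 8 had a mean above the background mark in immature, CCR7+Il12b- and CCR7+Il12b+ cells. Their mean level over the list was 5.17 to 5.22 in immature, 5.30 to 5.49 in CCR7+Il12b- and 5.05 to 5.18 in CCR7+Il12b+ samples. Syk, Siglecg, Cd79b, Ms4a1 and Blnk also had their highest mean in CCR7+Il12b- cells, whereas Cd22, Bank1, Btk and Plcg2 were highest in immature cells. The list median difference of CCR7+Il12b- from immature cells was 0.31. The markers brightest in immature cells, Fcrl1, Tnfrsf13c and Fcrla, differed by 0.08, 0.18 and -1.16. Cd79a, the partner of Cd79b and the 1 gene that rose among the receptors above, lay below the mark in every fraction, at 3.30, 3.46 and 3.88 in immature, 4.14, 4.10 and 4.26 in CCR7+Il12b-, and 3.47 and 3.71 in CCR7+Il12b+ samples. It rose in CCR7+Il12b- against immature cells on the deposited values (0.62 ± 0.15, adjusted p = 0.0106, and 0.0506 without immature replicate 2), a difference between signals that are both below background and allow no fold. Ebf1, a factor that defines the B lineage, was below the mark too, with means of 3.77, 4.07 and 3.99.

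Pax5, the other defining factor, had means of 5.15, 5.55 and 5.49, with CCR7+Il12b+ values of 5.12 and 5.87. Ighm had means of 5.88, 6.08 and 6.07 and Vpreb3 of 5.52, 5.50 and 5.77, and no difference of these 4 genes between fractions passed. In CCR7+Il12b- against immature cells 4 of the 15 rose and 1 fell, beside 9.10% and 14.5% of all genes, and the median difference was 0.31 beside 0.0608 over all genes. These genes were looked up after their values were seen: Cd79a, Pou2af1 (0.50 ± 0.11, adjusted p = 0.0068), Cxcr5 and Fcmr rose, and Fcrla fell (-1.16 ± 0.16, adjusted p = 0.000345). Cxcr5 was below the mark in every fraction, and the Fcmr call ended in 9 of 16 settings. Fcrl1, a receptor of the Fc receptor-like family, was the 1 marker called between the mature fractions (2 fell in 5 of the 8 fits that left out a sample), from 8.21, 7.87 and 8.08 to 7.05 and 6.40 (-1.33 ± 0.19, adjusted p = 0.00189). Without CCR7+Il12b- replicate 3 the counts in CCR7+Il12b- against immature cells were 3 and 1, and without immature replicate 2 the 4 higher calls became 2. The part of B cell RNA in the values of the 9 genes was not tested.

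**Figure D5:**
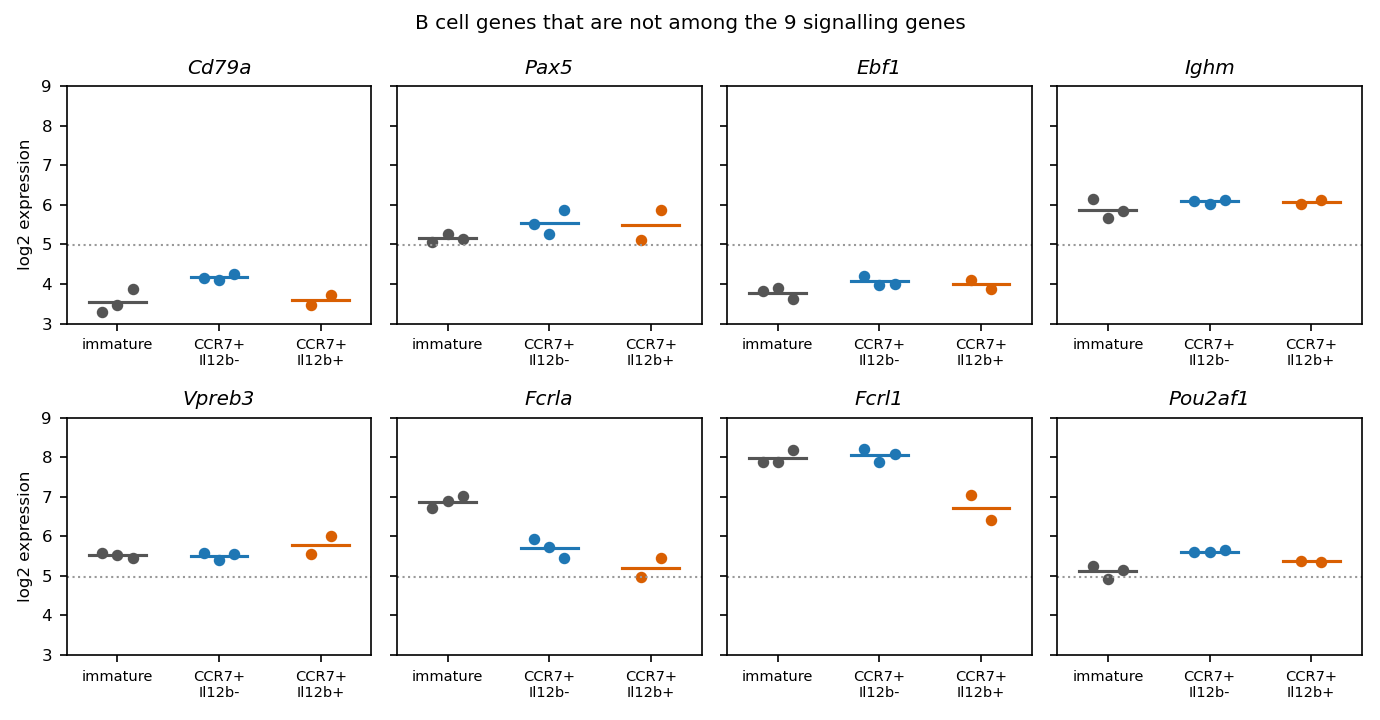
Log2 expression of 8 B cell genes outside the 9 signalling genes in each array, by sorted fraction (points are arrays, bars are group means, and the dotted line is the background mark of 4.98). Cd79a and Ebf1 lay below the mark in all arrays, and Fcrla was highest in immature cells.

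Markers of other cells that a sort could carry moved in different ways. Their counts stand beside 9.10% of all genes called higher and 14.5% called lower in CCR7+Il12b- against immature cells, and 4.47% called lower between the mature fractions. Of 13 CD11b+ dendritic cell markers, 5 rose and 1 fell in CCR7+Il12b- against immature cells and 4 fell between the mature fractions, with mean levels of 5.54 to 5.82, 6.20 to 6.31 and 5.86 to 6.05 in immature, CCR7+Il12b- and CCR7+Il12b+ samples. The 4 lower calls became 0 without CCR7+Il12b+ replicate 1 and 2 without CCR7+Il12b- replicate 1, and the 1 lower call became 2 without either CCR7+Il12b+ sample. Of 15 monocyte and macrophage markers, 4 rose and 3 fell in the first of these comparisons and 2 fell in the other, with mean levels of 5.57 to 5.76, 5.87 to 5.92 and 5.66 to 5.86. The 2 lower calls became 0 without CCR7+Il12b+ replicate 1, and 1 without CCR7+Il12b+ replicate 2, CCR7+Il12b- replicate 1 or CCR7+Il12b- replicate 2. Both lists thus had their highest mean levels in CCR7+Il12b- samples. For the monocyte and macrophage list, however, the lowest CCR7+Il12b- sample, at 5.87, nearly met the highest CCR7+Il12b+ sample, at 5.86. The median difference over the genes of that list between the mature fractions was 0.05. Of 10 plasmacytoid dendritic cell markers, 3 rose and 5 fell and then 2 fell, and their mean level went from 6.76 to 6.92 in immature to 6.15 to 6.16 in CCR7+Il12b+ samples. Of 11 T and NK cell markers, 2 rose and 1 fell in CCR7+Il12b- against immature cells, with mean levels of 4.83 to 4.91, 4.84 to 5.04 and 4.49 to 4.67. The 2 higher calls became 0 without immature replicate 3 or CCR7+Il12b- replicate 1 and 1 without any of the other 4 samples of these groups, and the 1 lower call ended without immature replicate 3 or CCR7+Il12b- replicate 2. Between the mature fractions 1 of the 11 fell, or 2 without CCR7+Il12b- replicate 3 or CCR7+Il12b+ replicate 2. The 10 neutrophil markers had mean levels of 4.29 to 4.48, 4.44 to 4.59 and 4.49 to 4.54, and 2, 4 and 4 of them lay above the background mark. XCR1+ dendritic cell identity genes had mean levels of 10.10 to 10.18, 9.44 to 9.87 and 8.78 to 8.91, and 8 of the 14 fell between the mature fractions. The part of these shifts in the results on Syk and the other 8 genes was not tested.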

How the data were processed

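RNA from 8 sorted samples was amplified and hybridised to 1 array each, with 3 or 20 ng of input, per the labels' protocols. The sources used here do not assign the input to samples. The deposited values are log2 expression values that the authors made with RMA and oligo, per the submitters' processing notes. The sources used here give no versions or options for either. The table held 35556 rows, of which 21789 had exactly 1 gene symbol in the platform annotation. For each of the 999 genes with several rows the brightest by mean stood for the gene, which left 19938 genes, and the 9 signalling genes had 1 row each.

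A model of the 3 group means was fitted to the 8 arrays with lmFit and eBayes of limma 3.58.1, under R 4.3.3, and had 5 residual degrees of freedom and 5.86 from the prior. P-values are two-sided, with Benjamini-Hochberg adjustment over all genes and calls at an adjusted p under 0.05. No gene was removed for low values. The model was tested on simulated data. The signalling genes and all lists were chosen with earlier results of these data known. In each pathway list the rule named up to 3 called genes with the largest difference per comparison of CCR7+Il12b- with either other fraction, among genes without overlap. It also named the sort genes, 6 defining B cell markers, Zap70 and the 5 genes most like Syk. Alternatives changed the normalization, filter, array weights, replicate block, rows per gene, samples in the fit and background mark, and left out each sample. The main fit did not treat the replicate numbers as pairs. Precision is limited by how few arrays there are.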

Additional observations from a re-analysis of the deposited data

How the results depend on the processing

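Over the alternatives, the counts of called genes and of called pathway genes stayed within 1.5 times of those reported, except between the mature fractions when 1 sample was left out. These fits have fewer samples, and no other cause was tested. There, 1412 genes were called with all samples and 712 to 1771 with 1 left out, with 925 without CCR7+Il12b- replicate 1, 786 without CCR7+Il12b- replicate 2 and 712 without CCR7+Il12b+ replicate 1. The 27 pathway calls became 15 to 30, with 15 without CCR7+Il12b+ replicate 1. Of 378 recomputed differences of the 9 signalling genes, 1 changed sign (Blnk, CCR7+Il12b+ against immature, under cyclic loess). Of these values, 25 moved by at least the residual SD of the gene. In CCR7+Il12b+ against immature cells, the difference ranged from -0.52 to -0.25 for Syk and from -0.99 to -0.69 for Siglecg. Of 27 calls of named pathway genes, 21 passed under every alternative, and Tns1 lost its call in CCR7+Il12b- against immature cells with the mean of its rows (adjusted p = 0.0669). With a background mark at the 99th percentile (5.93), 4 of the 9 genes had a group mean below it. Same-numbered samples had correlations of their deviations from group means between -0.17 and 0.22, and differently numbered samples between -0.22 and 0.19. With so few samples per group the deviations within a group are tied to each other. These correlations therefore cannot decide whether the replicate numbers pair the samples. With the replicate number as a block, 4318, 5767 and 1153 genes and 41, 56 and 20 pathway genes were called in the 3 comparisons (fixed), and 4428, 6089 and 1234 genes and 40, 57 and 25 pathway genes (random). Alternatives for the counts over the 9 genes were chosen after seeing the data. Background signal limits what can be read from genes near the background mark, Blnk among them.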
